A study of Mus musculus with 16 samples.

Results

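The 10 genes described here are used as T cell genes: Cd3d, Cd3e, Cd3g, Cd8a, Cd8b1, Cd2, Cxcr6, Trbc2, Lck and Nkg7. Not all are exclusive to T cells, as natural killer (NK) cells can also express Cd2, Nkg7 and Cxcr6. The genes were found by symbol in the deposited table of all 16 samples, as 10 of its 55487 genes. Each symbol matched 1 gene. RNA was sequenced from the right hippocampus of female mice labelled 40 weeks old, whose treatment protocol gives 9.5 months. The tissue label itself reads brain, and the hippocampus is named in the protocol. PS19 mice, labelled T, carry a human tau transgene (MAPT, isoform 1N4R) with the P301S mutation of familial frontotemporal dementia. The prion protein (PrP) promoter drives it. Crossing them with Ch25h knockout mice, which lack cholesterol 25-hydroxylase, gave 4 groups of 4 libraries. WT mice carry neither change, CKO mice lack Ch25h, T mice carry the transgene with Ch25h intact, and TCKO mice carry the transgene and lack Ch25h. All mice were perfused with PBS before dissection; erythrocyte genes still summed to between 4.4 and 360 CPM (counts relative to the TMM-scaled library total) over the libraries. Replicates are numbered in the labels, but it is not stated that each came from its own mouse, and a p-value here reflects the variation among libraries, which may be technical.

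T cells recognise peptides on MHC molecules through a receptor made of 2 variable chains, whose signal is carried by the CD3 chains and started by the kinase LCK. CD8, a dimer of an alpha and a beta chain, binds MHC class I and marks cytotoxic T cells, whereas CD4 marks helper T cells. T cells are few in the healthy brain, where most sit at its borders, and they have been found in the parenchyma in models of tau pathology.

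All 10 genes had their highest mean in T. In CPM, each T library lay above all 12 libraries of the other 3 genotypes for every one of them; in TPM, a level per transcript length, this held for 7 of the 10, and Cd8a, Cd2 and Lck overlapped. The 10 genes together took 2987 reads in T, 534 in WT, 319 in CKO and 553 in TCKO, each summed over 4 libraries. Their summed level, in CPM, was 24.8 ± 7.07 in T, 4.41 ± 0.226 in WT, 3.63 ± 0.896 in CKO and 5.13 ± 1.7 in TCKO (SD, n = 4 libraries each). These are low levels, and 3 reads in a library corresponded to between 0.089 and 0.195 CPM. A bulk measurement cannot tell fewer T cells apart from less RNA per cell.

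**Figure D1:**
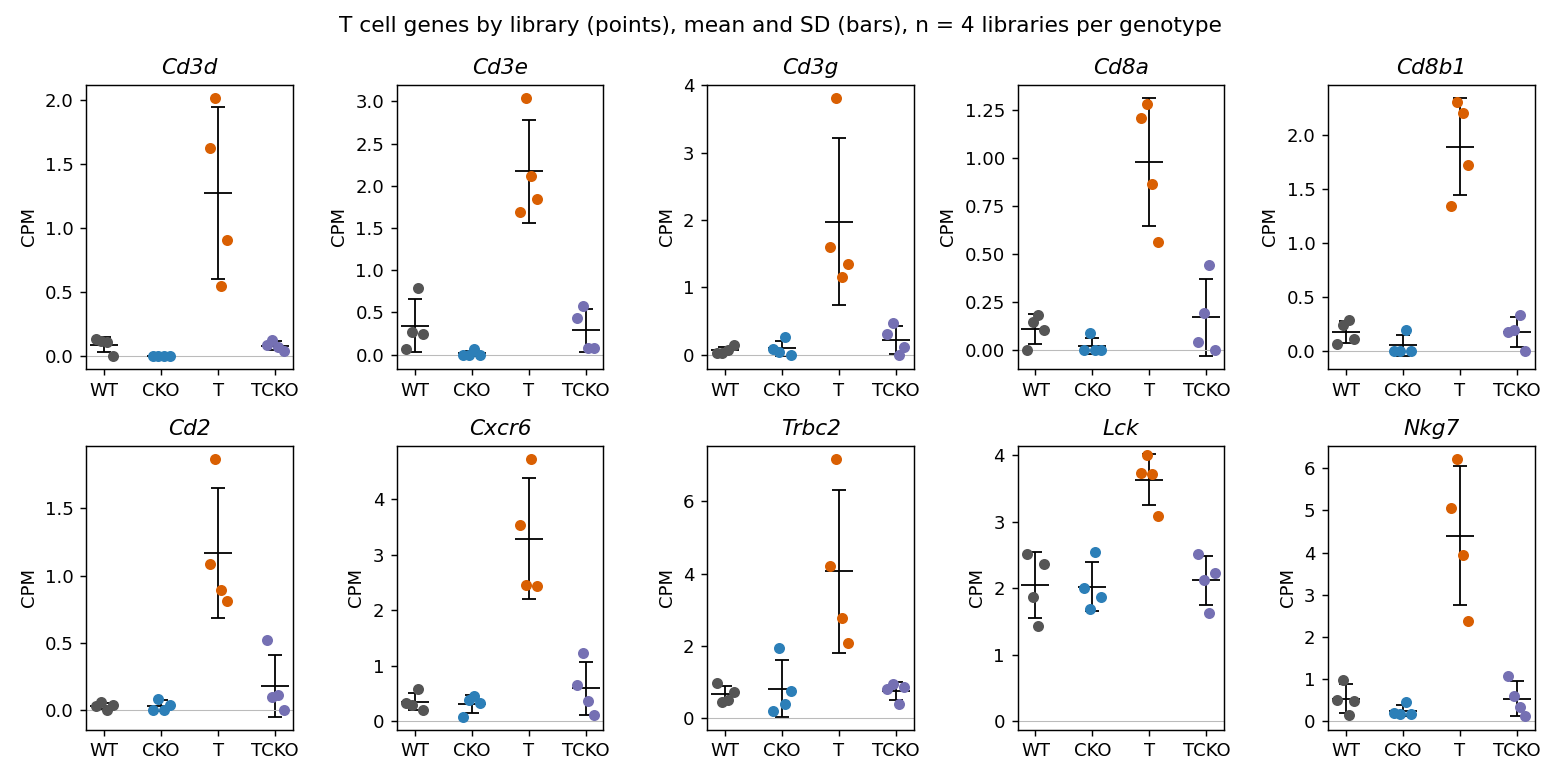
Level of each T cell gene (CPM, linear axis starting near 0) in each of the 16 libraries, with points for libraries and black bars for the mean and SD of 4 libraries per genotype. For all 10 genes the T points lie above every point of WT, CKO and TCKO, the nearest in ratio being Trbc2 (lowest T library 2.09, highest other 1.94).

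Library totals ran from 15064309 to 34348284 reads, the lowest being CKO replicate 4. Ch25h had 133 to 300 reads in the T libraries and 0 to 1 in the TCKO libraries, as the labels name. Choroid plexus genes stood out in WT replicate 1 and T replicate 4 (summed level up to 7450 and 7850 CPM). Neuronal markers ran from 5540 to 6220 CPM in WT and from 3650 to 5300 CPM in T, and microglial markers from 416 to 568 and from 1150 to 1490 CPM. The part of these shifts in the T cell results was not tested. All 10 genes entered the test of 18565 genes. Cd3d and Cd8b1 passed the low-count filter through the T libraries alone, and Cd3g, Cd8a and Cd2 through the T libraries and 1 TCKO library.

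The CD3 chains are the invariant signalling subunits of the T cell receptor, and their genes lie together on chromosome 9 of GRCm38 (GENCODE M21). Cd3d (ENSMUSG00000032094) spans 44981786 to 44987339 on the plus strand, Cd3g (ENSMUSG00000002033) 44969572 to 44980431 on the minus strand and Cd3e (ENSMUSG00000032093) 44998740 to 45009627 on the minus strand. The start sites of Cd3d and Cd3g are 1355 bases apart and point away from each other. Because these neighbours moved together, the 250 bases before each RefSeq start (GRCm38.p6) are shown, 5′ to 3′ on the strand of the gene. Capitals mark matches, on either strand, to the letters AGGAAG for ETS factors, AGATAA for the GATA family or CTTTGA for TCF and LEF factors, and no matches overlap.
Cd3d, chr9:44981536-44981785, plus strand: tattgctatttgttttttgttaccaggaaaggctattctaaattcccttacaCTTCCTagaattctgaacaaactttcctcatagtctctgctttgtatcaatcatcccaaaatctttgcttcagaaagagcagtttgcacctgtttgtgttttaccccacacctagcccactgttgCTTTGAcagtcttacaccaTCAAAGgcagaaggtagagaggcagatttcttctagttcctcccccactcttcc
Cd3g, chr9:44980432-44980681, minus strand: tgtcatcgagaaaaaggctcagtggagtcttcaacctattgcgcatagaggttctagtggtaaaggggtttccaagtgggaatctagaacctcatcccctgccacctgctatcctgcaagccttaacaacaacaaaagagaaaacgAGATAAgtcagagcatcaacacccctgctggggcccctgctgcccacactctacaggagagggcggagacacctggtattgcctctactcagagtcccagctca
Cd3e, chr9:45009612-45009861, minus strand: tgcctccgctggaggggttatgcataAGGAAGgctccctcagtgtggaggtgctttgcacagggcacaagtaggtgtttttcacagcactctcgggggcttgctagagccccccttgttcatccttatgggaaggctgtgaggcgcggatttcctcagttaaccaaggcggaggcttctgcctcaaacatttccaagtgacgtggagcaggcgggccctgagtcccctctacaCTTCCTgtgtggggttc

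Cd3d held 1 ETS and 2 TCF/LEF matches, Cd3g 1 GATA match and Cd3e 2 ETS matches. Of 32817 RefSeq windows of the same length, 29.5% held the ETS letters, 9.99% the GATA letters and 13.8% the TCF/LEF letters. The RUNX core TGTGGT was in 14% of all windows and the E-box CAGCTG in 13%, and neither was in these 3 windows. A match is a description of letters in the window and not a bound site. RefSeq windows were matched for 7 of the 10 genes.

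Cd3d was read 51, 55, 17 and 29 times in the T libraries (replicates 2 to 5), and 4, 4, 3 and 0 times in WT (replicates 1, 2, 4 and 5). The CKO libraries held 0 Cd3d reads each and the TCKO libraries (replicates 2 to 5) held 2, 4, 2 and 1. Every T library was above every other, and the remaining groups lay close to the floor. Cd3d rose in T against WT by 3.75 ± 0.65 (log2 fold change ± SE, adjusted p = 0.00111) and was lower in TCKO than in T by a log2 fold change of -3.86 ± 0.67 (adjusted p = 0.00184). Its TCKO mean was 6.42% of the T mean, the lowest such share among the 10 genes. Each SE here and below is the absolute log2 fold change over the square root of the test's F statistic, not a separately fitted error.

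Cd3g was read 50, 104, 36 and 43 times in T, 1, 1, 2 and 4 times in WT, 2, 1, 4 and 0 times in CKO and 7, 15, 0 and 3 times in TCKO. T replicate 3 stood above the other T libraries, and TCKO replicates 2 and 3 held most of the TCKO reads. Cd3g rose by 4.78 ± 0.87 in T against WT (adjusted p = 0.00088). Its change in TCKO against T was -3.09 ± 0.76 (adjusted p = 0.0135). That call was lost without T replicate 3 (-2.57, adjusted p = 0.0554) and without TCKO replicate 5 (-2.88, adjusted p = 0.0524).

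Cd3e was read 53, 83, 66 and 59 times in T, 2, 9, 22 and 7 times in WT, 0, 0, 1 and 0 times in CKO and 10, 18, 2 and 2 times in TCKO. Among the 3 CD3 genes, Cd3e had the most even reads in T and the most in WT, where replicate 4 held 22 of 40. Cd3e rose by 2.66 ± 0.67 in T against WT (adjusted p = 0.00863), and the change in TCKO against T was -2.88 ± 0.68 (adjusted p = 0.0107). The annotated antisense gene Gm48719 shares 135 exon bases with Cd3e and had 0 reads in every library.

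The receptor chains themselves were represented by Trbc2 (ENSMUSG00000076498, chromosome 6, 41546730 to 41548352, plus strand), the second constant region of the beta chain. Its reads numbered 132, 196, 87.3 and 66.8 in T and 30, 14.6, 13.9 and 21 in WT, with 5, 44.6, 6 and 21 in CKO and 19.5, 30, 11 and 22 in TCKO. The T libraries were the highest, but CKO replicate 2 (1.94 CPM) came close to the lowest T library (2.09 CPM). Trbc2 rose by 2.60 ± 0.55 in T against WT (adjusted p = 0.00289) and changed by -2.41 ± 0.55 in TCKO against T (adjusted p = 0.0084). The fractional reads come from estimated counts, and Trbc2 shares near-identical sequence with Trbc1, so how reads were split between them is uncertain. Trbc1, the first constant region, rose by 5.33 ± 1.01 (adjusted p = 0.00124) from 2 reads in WT to 103 in T. Trac, the alpha constant region, rose by 1.09 ± 0.29 (adjusted p = 0.0121). Trdc, the delta constant region of the other T cell lineage, showed no call at 0.43 ± 0.71 (adjusted p = 0.713).

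The CD8 coreceptor is encoded by Cd8a (ENSMUSG00000053977, chromosome 6, 71373427 to 71379173) and Cd8b1 (ENSMUSG00000053044, 71322788 to 71337494), both on the plus strand with start sites 50.6 kb apart. Cd8a was read 38, 35, 27 and 18 times in T, 0, 5, 5 and 3 times in WT, 0, 2, 0 and 0 times in CKO and 1, 6, 12 and 0 times in TCKO. In CPM the T libraries did not overlap the others, though the highest TCKO library (0.445) was near the lowest T library (0.562). In TPM they overlapped, with 0.323 in TCKO replicate 4 and 0.249 in T replicate 5. Cd8a rose by 3.13 ± 0.85 in T against WT (adjusted p = 0.013). The difference of TCKO from T was -2.47 ± 0.81 and missed the threshold (adjusted p = 0.0548). It passed without TCKO replicate 4, which held 12 of the 19 TCKO reads (-3.51, adjusted p = 0.0234), without WT replicate 1 (adjusted p = 0.0411) and without T replicate 5 (adjusted p = 0.0466). DESeq2 (adjusted p = 0.0393) and limma voom (adjusted p = 0.015) called it as well.

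Cd8b1, the beta chain that T cells add to CD8 alpha, was read 42, 63, 69 and 55 times in T and 2, 8, 8 and 3 times in WT. CKO had 0, 0, 3 and 0 reads of Cd8b1 and TCKO 4, 6, 9 and 0. The lowest T library, at 1.34 CPM, was above the highest of the other 12, at 0.334 CPM. Cd8b1 rose by 3.41 ± 0.74 in T against WT (adjusted p = 0.00318), and its change in TCKO against T was -3.40 ± 0.74 (adjusted p = 0.00625).

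Cd4, the helper coreceptor, did not follow the CD8 genes. It was read 8, 8, 15 and 10 times in T and 3, 18, 12 and 4 times in WT, and these ranges overlap. The fitted difference was 0.15 ± 0.59 (adjusted p = 0.892), and that of the regulatory T cell factor Foxp3 was -0.21 ± 1.01 (adjusted p = 0.914). Of 9 helper and regulatory genes 5 were tested, and 2 rose in T, against 13% of all genes. Among the 2 was Tnfrsf18, the receptor GITR (2.17 ± 0.57, adjusted p = 0.0108). Tnfrsf18 fell in TCKO against T (-2.70 ± 0.6, adjusted p = 0.00733).

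**Figure D2:**
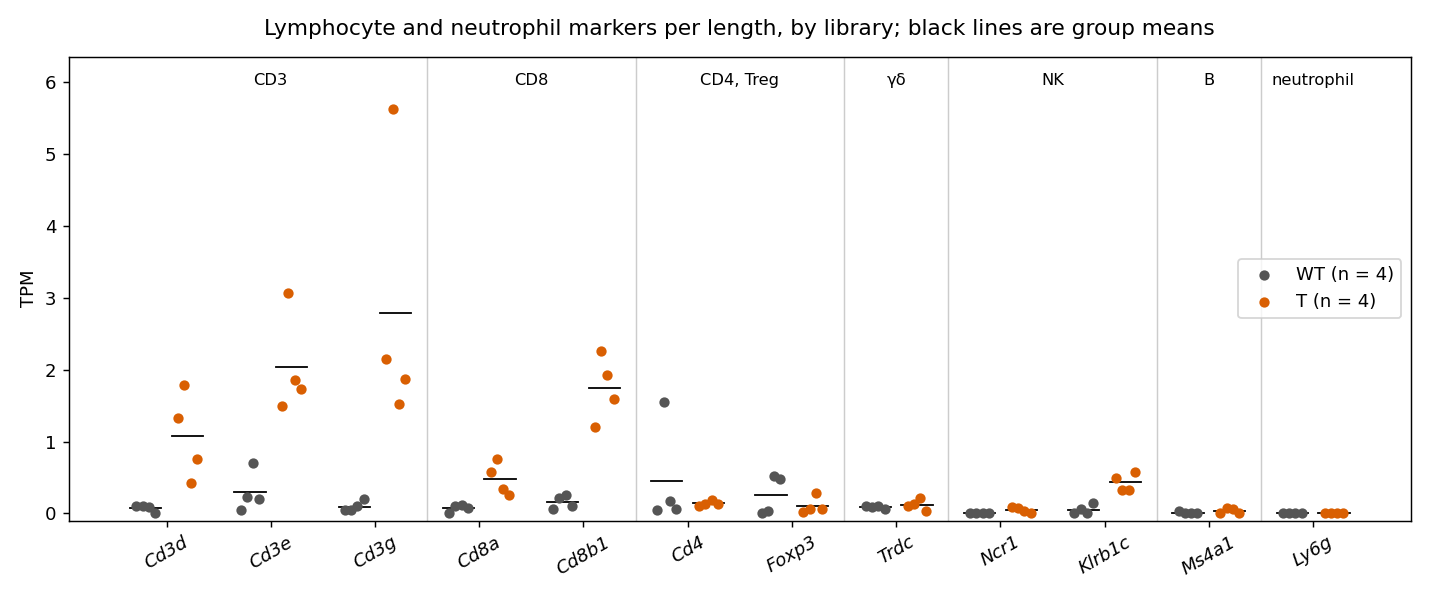
Level per transcript length (TPM, linear axis) of lymphocyte and neutrophil markers in the 4 WT and 4 T libraries, with black lines for group means. The CD3 and CD8 genes and Klrb1c, an NK marker, separate the groups. Cd4, Foxp3, Trdc, Ncr1 and Ms4a1 overlap, and Ly6g is at 0.

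Cd2 (ENSMUSG00000027863, chromosome 3, 101275899 to 101287939, minus strand) encodes an adhesion receptor of T and NK cells. It was read 34, 51, 28 and 26 times in T, 1, 2, 0 and 1 times in WT, 0, 2, 0 and 1 times in CKO and 12, 3, 3 and 0 times in TCKO. The T libraries were above all others in CPM, and TCKO replicate 2 held 12 of the 18 reads of its group. In TPM that library, at 1.11, was above the lowest T library, at 1.02. Cd2 had the largest fitted rise of the 10 genes in T against WT, 4.97 ± 0.89 (adjusted p = 0.000775), over a WT group of 4 reads. Its change in TCKO against T was -2.70 ± 0.74 (adjusted p = 0.0241). That call was lost without T replicate 2 or 3 or without TCKO replicate 3, 4 or 5 (adjusted p from 0.0576 to 0.0771) and in a fit of only the 8 libraries compared (adjusted p = 0.0562). It was also lost with an offset for effective gene length, added after seeing the data (-2.20, adjusted p = 0.0809). Cd48, which encodes the main CD2 ligand of mice, rose by 4.03 ± 0.41 in T against WT (adjusted p = 4.07e-06).

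Cxcr6 (ENSMUSG00000048521, chromosome 9, 123806475 to 123811760, plus strand) encodes a chemokine receptor of tissue-resident and effector T cells. Its reads were 111, 67, 148 and 78 in T, 10, 10, 16 and 6 in WT, 2, 9, 7 and 9 in CKO and 15, 39, 10 and 3 in TCKO. T replicate 4 was highest here, while T replicate 3 was highest for the other 9 genes. Cxcr6 rose by 3.21 ± 0.56 in T against WT (adjusted p = 0.000652) and changed by -2.45 ± 0.54 in TCKO against T (adjusted p = 0.0066). The gene lies within Fyco1 on the opposite strand, with 0 shared exon bases, and the labels do not state whether counting used strand. Fyco1 rose by 0.52 ± 0.12 in T against WT (adjusted p = 0.00517). Cxcl16, the gene of the CXCR6 ligand, rose by 4.02 ± 0.46 (adjusted p = 1.1e-05), from 1.73 ± 0.584 to 28.1 ± 4.15 CPM (SD, n = 4 each), and changed by -2.68 ± 0.43 in TCKO against T (adjusted p = 0.000519).

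Nkg7 (ENSMUSG00000004612, chromosome 7, 43437073 to 43438249, plus strand) encodes a granule membrane protein of cytotoxic T and NK cells. Its reads were 159, 170, 123 and 76 in T, 16, 33, 4 and 14 in WT, 5, 4, 7 and 5 in CKO and 25, 19, 9 and 3 in TCKO. All T libraries were above the others, and CKO was the lowest group. Nkg7 rose by 3.02 ± 0.56 in T against WT (adjusted p = 0.00109) and its change in TCKO against T was -3.04 ± 0.57 (adjusted p = 0.00191). The granule genes that cytotoxic cells release were low. Prf1, perforin, was read 15, 10, 6 and 9 times in T, 2, 8, 0 and 0 times in TCKO and 0 times in WT and CKO, and did not pass the filter. Gzmk rose by 2.23 ± 0.66 in T (adjusted p = 0.0216). Gzmb had 3 to 9 reads in the T libraries and up to 9 in WT.

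Lck (ENSMUSG00000000409, chromosome 4, 129548344 to 129573641, minus strand) moved least. Its reads were 117, 109, 116 and 99 in T, 78, 63, 40 and 67 in WT, 49, 39, 39 and 51 in CKO and 58, 67, 44 and 57 in TCKO. Lck was also the gene with the most reads outside T: it supplied 248 of the 534 WT reads of the 10 genes. In CKO Lck had 178 reads, beside 0 of Cd3d and 1 of Cd3e. Which cells the Lck reads came from was not tested. Lck rose by 0.82 ± 0.22 in T against WT (adjusted p = 0.0129), and its change in TCKO against T was -0.77 ± 0.22 (adjusted p = 0.0307). The mean in TCKO was 58.5% of that in T, against 6.42% to 18.7% for the other 9 genes.

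The rise of Lck depended on the scale. In TPM the T libraries (2.65 to 3.35) overlapped the WT libraries (1.57 to 3.11). The effective length that the deposited files give for Lck ran from 1293 to 1733 bases in T and from 1021 to 1529 bases in WT. With that length as an offset the difference of T from WT was 0.36 (adjusted p = 0.391) and that of TCKO from T was -0.33 (adjusted p = 0.49). The other 9 genes stayed called in T against WT with this offset. Lck has 8 transcripts in GENCODE M21, of which 4 are protein coding (368 to 2185 bases) and 4 retain introns (450 to 779 bases). RefSeq places 2 starts in the gene, and the 250 bases before each are shown because transcripts of unlike length can come from different starts. Capitals mark AGGAAG (ETS) or TGTGGT (RUNX) on either strand.
Lck, upstream start, chr4:129573642-129573891, minus strand: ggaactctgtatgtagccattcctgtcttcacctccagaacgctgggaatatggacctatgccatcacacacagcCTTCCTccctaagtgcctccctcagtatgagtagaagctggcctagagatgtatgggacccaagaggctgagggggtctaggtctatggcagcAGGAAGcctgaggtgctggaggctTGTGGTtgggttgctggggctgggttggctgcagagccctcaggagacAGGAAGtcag
Lck, downstream start, chr4:129558373-129558622, minus strand: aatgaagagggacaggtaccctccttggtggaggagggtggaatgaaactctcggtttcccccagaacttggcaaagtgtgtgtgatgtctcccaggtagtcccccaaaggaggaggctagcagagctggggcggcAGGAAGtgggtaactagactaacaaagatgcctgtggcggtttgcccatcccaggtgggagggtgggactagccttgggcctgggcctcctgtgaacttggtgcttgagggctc

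The window at the upstream start held 3 ETS matches and 1 RUNX match, and that at the downstream start 1 ETS match. Which start the reads came from was not tested. The call for Lck in TCKO against T was lost in 11 alternatives (adjusted p from 0.0527 to 0.49), among them leaving out T replicate 2, 3 or 4 or TCKO replicate 3, 4 or 5, and the choroid-rich pair (adjusted p = 0.0739).

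**Figure D3:**
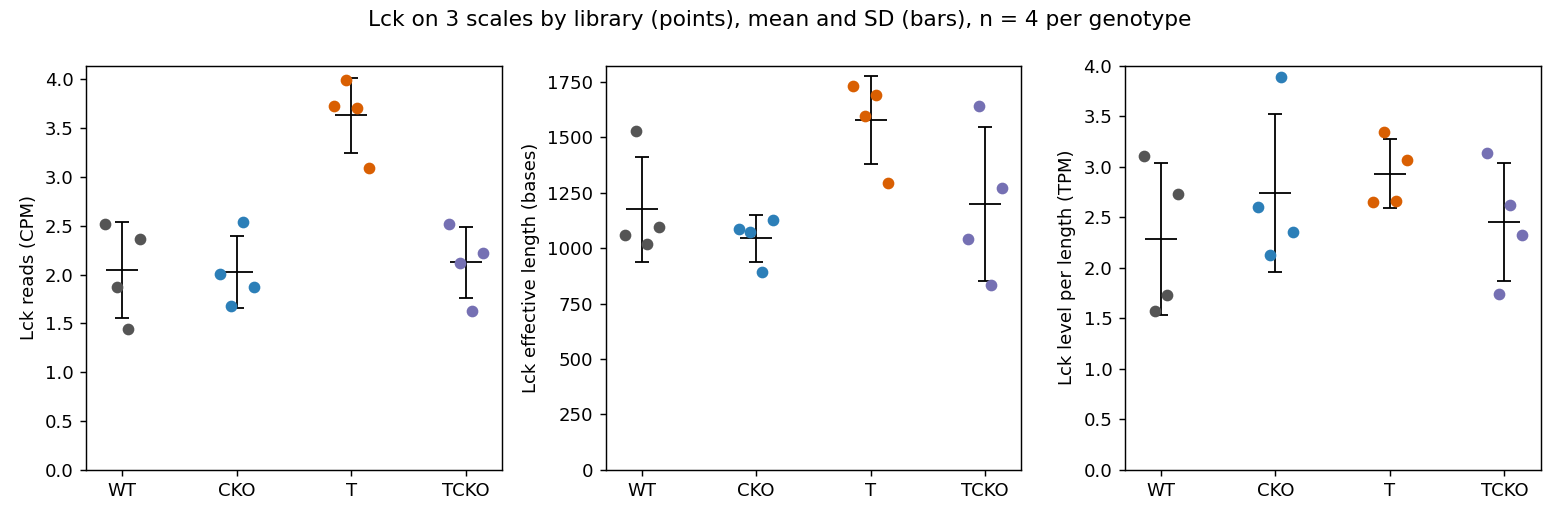
Lck in each library as CPM, as effective length in bases and as TPM (linear axes from 0), with points for libraries and black bars for the mean and SD of 4 libraries per genotype. The T libraries are apart from WT in CPM (3.09 to 3.99 in T) but overlap WT in TPM.

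For T against WT, all 10 genes were called higher, with a median log2 fold change of 3.17. Over all 18565 genes the median was -0.01 and 13% were called higher. The 10 genes were chosen with earlier results of these data known, so the count is a description and not a separate test. Cd3d and Cd8b1 passed the low-count filter through the T libraries alone, and Cd3g, Cd8a and Cd2 with 1 TCKO library besides. In CPM the T and WT libraries did not overlap for any of the 10, with T higher, against 13.3% of all genes; in TPM they did not for 9 of the 10. All 10 stayed called with T replicate 4 and WT replicate 1, the choroid-rich pair, left out. The count was 9 with the effective length offset, where Lck was lost.

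For TCKO against T, which asks what the loss of Ch25h changes in tau mice, 9 of the 10 were called lower and Cd8a was not. The median was -2.79, against 0.02 over all genes, of which 8.05% were called lower. The same limits of choice and filter hold for the 9 called. With the effective length offset the count was 7, with Cd8a, Cd2 and Lck not called. In CPM TCKO lay wholly below T for all 10 genes, as for 9.65% of all genes, and in TPM for 7 of the 10. Markers of other cells moved in the same comparison: 5 of 8 microglial, 4 of 8 border macrophage and monocyte and 3 of 4 tested B and plasma cell genes fell, and 2 of 7 neuronal genes rose. Summed microglial markers ran from 517 to 873 CPM in TCKO and from 1150 to 1490 CPM in T, and border markers from 5.85 to 6.88 and from 10.9 to 20.6 CPM. Neuronal markers ran from 4690 to 7120 CPM in TCKO and from 3650 to 5300 CPM in T, and B and plasma cell markers from 62.8 to 98.7 and from 31.1 to 363 CPM. Their part in the fall of the T cell genes was not tested. The comparisons with WT and with TCKO share the T libraries, so they are not independent of each other.

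**Figure D4:**
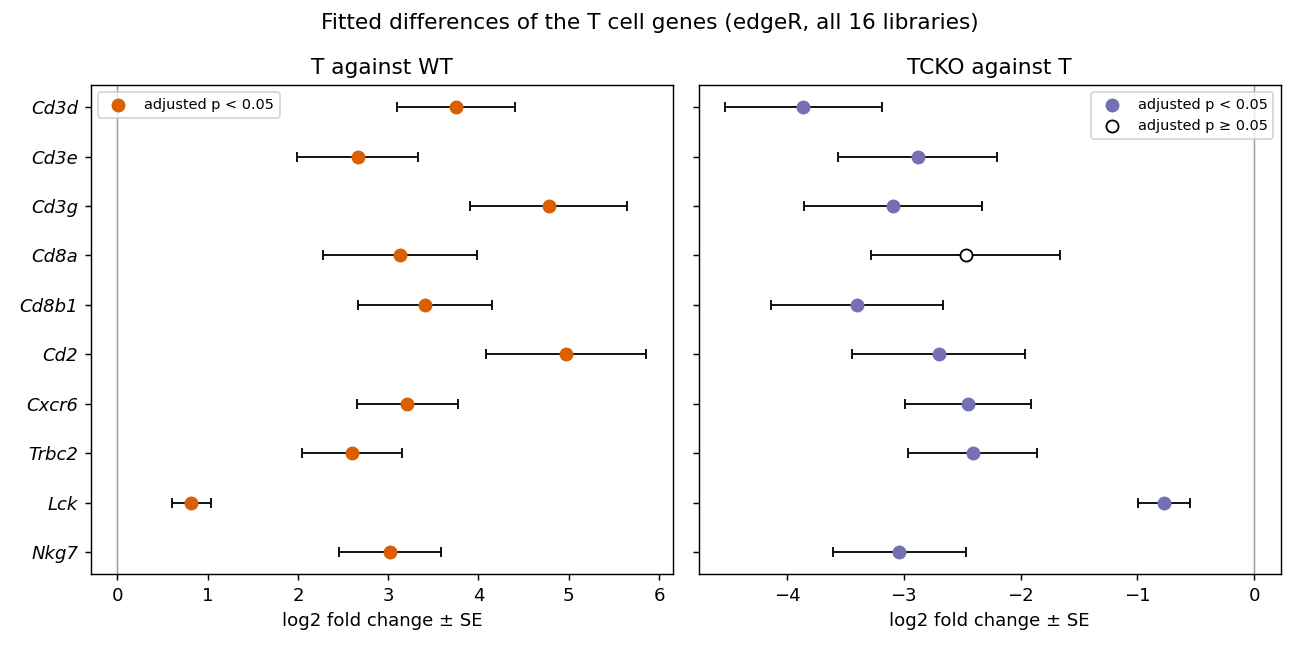
Log2 fold change ± SE of each T cell gene in T against WT and in TCKO against T, from edgeR over all 16 libraries; filled points have an adjusted p under 0.05. All 10 genes lie above 0 on the left and below 0 on the right, Cd8a being the open point and Lck the closest to 0. The SE is calculated from the test's F statistic.

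In TCKO against CKO, the effect of the tau transgene without Ch25h, edgeR called 0 of the 10 genes, limma voom called 0 and DESeq2 called 1 (Cd3e). At an unadjusted p under 0.05 there were 4: Cd3d, Cd3e, Cd8a and Cd2, each higher in TCKO. At that level 1934 of all 18565 genes were higher. At the adjusted threshold the background was 0.35% of genes called higher. A fit of only the 8 libraries compared tested 2 of the 10, the rest not passing the low-count filter, and called 0. Cd3d and Cd3e were higher in every TCKO library than in any CKO library, as were 5.32% of all genes. Cd3d had 9 reads in TCKO and 0 in CKO, at least 2.52-fold higher against a floor of 3 reads over the CKO group. Cd3e had 32 and 1 reads, a ratio of 26.9 (95% counting interval 4.5 to 1100, counting error only). Trbc2 (-0.13 ± 0.56, adjusted p = 0.926) and Lck (0.07 ± 0.23, adjusted p = 0.901) were the closest to 0. The median of the 10 was 1.79, or 1.37 with Cd3d at its bound.

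In CKO against WT, without the transgene, edgeR and limma voom called 0 of the 10, DESeq2 called 1 (Cd3e, lower), and 2 had an unadjusted p under 0.05 (Cd3d and Cd3e). The median was -0.66, and 0.0108% of genes were called lower at the adjusted threshold. At an unadjusted p under 0.05, 1011 of all 18565 genes were lower. A fit of only the 8 libraries compared tested 3 of the 10, the rest not passing the low-count filter, and called 0. Cd3d had 11 reads in WT and 0 in CKO, at least 2.74-fold higher in WT. Cd3e had 40 and 1, a ratio of 29.9 (5.06 to 1210), and replicate 4 held 22 of the 40 reads in WT. Of the 40 values of the 10 genes in each group, 16 were 0 in CKO, 3 in WT, 4 in TCKO and 0 in T. CKO replicate 4, the shallowest library, had reads for 7 of the 10 genes, as did CKO replicate 2. CKO replicates 1 and 5, which were deeper, had reads for 5 each. The part of depth in these zeros was not tested.

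The test of whether the tau effect differed with and without Ch25h (the interaction) called 0 of the 10 genes in edgeR and in limma voom and 1 in DESeq2 (Trbc2, adjusted p = 0.0123), against 2.45% of all genes called lower in edgeR. At an unadjusted p under 0.05 there were 5, all negative: Cd3g, Cxcr6, Trbc2, Lck and Nkg7. At that level 1868 of all 18565 genes were negative. Trbc2 was the nearest to the threshold in edgeR (-2.74, adjusted p = 0.0667) and passed it without CKO replicate 1 (-3.07, adjusted p = 0.037), without T replicate 5 (-2.95, adjusted p = 0.0361) and without the low-count filter (-2.76, adjusted p = 0.0499). So the 10 genes being called in T against WT and not in TCKO against CKO does not by itself show that the 2 effects differ.

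Per transcript length, the T libraries were led by Trbc2 (9.83 ± 5.93 TPM) and Nkg7 (8.68 ± 4.17), whose ranges overlap widely. Lck (2.93 ± 0.34), Cd3g (2.79 ± 1.91), Cxcr6 (2.26 ± 0.663) and Cd3e (2.04 ± 0.703) followed, with overlapping ranges. Cd8b1 (1.74 ± 0.451), Cd2 (1.48 ± 0.71) and Cd3d (1.08 ± 0.601) came next, again overlapping, and Cd8a was the lowest at 0.481 ± 0.231 TPM (SD, n = 4 each). The ranges of Cd8a (0.249 to 0.761 TPM) and Cd3d (0.429 to 1.79 TPM) overlap. Cd8b1 was above Cd8a in all 4 T libraries.

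Across the T libraries, T replicate 3 was the highest in 9 of the 10 genes. T replicate 5 was the lowest in 6, and T replicates 2 and 4 in 2 each. Over all 16 libraries, each gene's log2 CPM followed the mean of the other 9 with Pearson r between 0.81 and 0.94. With genotype means removed, r was 0.12 (Lck) to 0.62 (Cxcr6), so most of the likeness lay between the genotypes. The 10 other genes whose level most resembled the mean of the T cell genes were S100a6 (r = 0.990), Ddx58 (0.990), Psmb9 (0.982), Ccl2 (0.980), Ly9 (0.980), Parp9 (0.978), Trim30a (0.977), Lgals9 (0.977), Pdpn (0.977) and Aqp4 (0.977). Their r within genotypes was 0.74 to 0.92 over the same 16 libraries, which share depth and tissue makeup.

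Other genes of T cells moved with them in part. Of 19 genes of receptor chains and proximal signalling 13 were tested: 7 rose and 0 fell in T against WT, with a median of 1.09, and 4 fell in TCKO against T. Over all genes tested, 13% were called higher in T against WT and 8.05% lower in TCKO against T. Fyb and Lcp2, adaptors that myeloid cells also use, rose by 2.71 ± 0.23 and 1.59 ± 0.26. Zap70, the kinase that acts after LCK, was not called (-0.67 ± 0.3, adjusted p = 0.114), and its T mean (2.33 ± 0.852 CPM) was below its WT mean (3.73 ± 1.35 CPM). Of 14 costimulatory and inhibitory receptors 8 were tested, and 6 rose in T and 5 fell in TCKO against T. In TCKO against CKO 2 of the 8 were called higher, against 0.35% of all genes and 0 of the 10. Pdcd1, the inhibitory receptor PD-1, rose by 6.03 ± 0.65 (adjusted p = 6.47e-06) from 0.188 ± 0.0909 to 12.6 ± 1.59 CPM. In TPM Pdcd1 averaged 8.96 in T, 1.48 in TCKO and 0.131 in WT, and Cd3e averaged 2.04, 0.334 and 0.295. Which cells expressed Pdcd1 was not tested. Lag3, which microglia also express, reached 72.4 ± 16.1 CPM in T.

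Of 14 genes of residence and homing 10 were tested, and 5 rose in T, among them Cd69, Itgal and Cxcr3. Cd69, an early activation and residence marker, rose by 5.02 ± 0.87 (adjusted p = 0.000594), and 3 of the 5 fell in TCKO against T. For this and the next lists the shares over all genes were again 13% higher in T against WT and 8.05% lower in TCKO against T. Itgae, the integrin CD103 of resident CD8 cells, showed no call (0.61 ± 0.5, adjusted p = 0.411). Of 14 cytotoxic genes 6 were tested and 4 rose, among them Ccl5 (4.75 ± 0.91, adjusted p = 0.0013). Of 12 transcription factors 8 were tested, of which 3 rose (Tcf7, Lef1 and Ikzf1) and 5 were not called. In CKO, Tcf7, Lef1 and Ikzf1 had 104, 520 and 190 reads, where Cd3e had 1. Which cells these reads came from was not tested. A list of 15 chemokines, adhesion molecules and genes of MHC class I and its peptide loading had 14 tested, of which 14 rose in T and 13 fell in TCKO against T. Most of them are not direct ligands of the products of the 10 genes. They include B2m (2.51 ± 0.26, adjusted p = 4.72e-06) and H2-K1 (2.71 ± 0.24, adjusted p = 1.52e-06), which form MHC class I, the ligand of CD8.

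Markers of other blood cells were given beside these. Of all genes tested, 13% were called higher in T against WT. Among 8 NK markers 2 were tested and both rose. Klrb1c had 82 reads in T and 9 in WT, and Ncr1 had 0 to 3 reads in T libraries and 0 in WT. The other, Tyrobp, is also a microglial gene. The 7 NK markers other than Tyrobp summed to 0.696 to 1.21 CPM in T, 0.072 to 0.212 CPM in WT and 0.039 to 0.304 CPM in TCKO. Among 8 B and plasma cell markers 4 were tested and 3 rose (Cd79b, Igkc and Jchain). T replicate 3, the library highest for 9 of the 10 T cell genes, held 4454 of the 4889 Igkc reads and 346 of the 430 Jchain reads in T. Without it, in a fit added after seeing the data, Igkc (1.62, adjusted p = 0.241) and Jchain (1.10, adjusted p = 0.335) were not called higher in T, and Cd79b was (2.18, adjusted p = 0.000745). In TCKO against T the same fit lost Jchain (-1.26, adjusted p = 0.32) and called Igkc (-4.07, adjusted p = 0.021). Their summed level ran from 31.1 to 363 CPM in T and from 9.36 to 93.1 CPM in WT. Among 7 neutrophil markers 3 were tested and S100a9 rose, with Ly6g at 0 in every group and a summed level of 4.28 to 7.99 CPM in T and 2.73 to 4.75 CPM in WT. Of 8 border macrophage and monocyte markers, 2 rose in T (Ccr2 and Ly6c2). The summed level of 5 erythrocyte genes, a sign of blood, ran from 6.15 to 164 CPM in T and from 44.5 to 253 CPM in WT. The part of these cell types in the values of Cd2, Nkg7 and Cxcr6, which NK cells can also express, was not tested.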

How the data were processed

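RNA sequencing of 16 hippocampal libraries was analysed from the deposited estimated counts per gene and the TPM and effective lengths in the per-sample files; which program made them was not given in the sources used here. STAR 2.5.1a, featureCounts 1.4.6-p5 and build GRCm38 are named, without roles, in the submitters' processing notes. The authors' expected counts (estimated counts that need not be whole) were deposited unnormalized, and the deposited TPM are relative to transcript length and library. Of 55774 lines, 287 repeated a gene and were used once. Counts were rounded and tested in edgeR 4.0.16 (R 4.3.3) with TMM, filterByExpr (minimum count 10), a quasi-likelihood fit over all 16 libraries and Benjamini-Hochberg adjustment over 18565 genes (threshold 0.05). The step was also run on simulated data with changed genes drawn from all those tested, which was not a check of calls at counts this low. Alternatives included DESeq2 1.42.0 and limma 3.58.1. The 10 genes, the lists and the tests were chosen with earlier results of these data known. Named genes were the 10 genes, examples from the first 6 of each list or its 3 smallest p, and the 10 most alike; Klrb1c and others named to complete a count of 5 or fewer were chosen after their values were seen. Deviations of same-numbered WT and T libraries from their genotype means correlated with r = 0.12, 0.14 and 0.30. Pairs of unlike number were not compared, so these values do not show a pairing. The replicate block was checked for that comparison and changed no call of the 10 genes. Some genes of the lists are withheld and not reported here. Intervals and floors (3 reads, 95%) cover counting error only.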

Additional observations from a re-analysis of the deposited data

Results flagged for a closer look

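In 39 groups of 4 libraries with a spread, 6 held 1 library far from the other 3, by a gap above Dixon's critical share of the group's range. Chance flags about 1 in 20 groups of normally spread values, which counts this low are not. A group with reads in only 1 library is always flagged, as were Cd3e, Cd8a and Cd8b1 in CKO. The 6 flags can therefore not be compared with 1 in 20. Cd3g in T replicate 3 was 3.81 CPM, where the others ran from 1.15 to 1.59, and the fall of Cd3g in TCKO against T was not called without that library. Cd3d in WT replicate 5 was 0, where the others ran from 0.108 to 0.129 CPM. The remaining 4 were in CKO. Cd3e was 0.0651 CPM in CKO replicate 4 and 0 elsewhere, Cd8b1 0.195 CPM in CKO replicate 4 and 0 elsewhere, and Cd8a 0.0862 CPM in CKO replicate 2 and 0 elsewhere, from 1, 3 and 2 reads. Nkg7 was 0.456 CPM in CKO replicate 4, the shallowest library, against 0.172 to 0.205 CPM.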

How the results depend on the processing

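All 10 genes stayed higher in T against WT in every alternative that tested them. Only Lck with the effective length offset lost its call (0.36, adjusted p = 0.391). The rest of the 248 repeats, 247, changed neither direction nor call (Cd3d and Cd8a were not tested after thinning). In TCKO against T all stayed lower, with the counts called running from 6 to 10 when each library was left out in turn. Same-numbered T and TCKO libraries had r from -0.14 to 0.17, which does not show whether they were paired. With the replicate block Cd8a was called (-2.70, adjusted p = 0.0365) and Lck was not (-0.78, adjusted p = 0.0574), and the count stayed at 9. DESeq2 called 1 gene each in TCKO against CKO, CKO against WT and the interaction, and the fit without the low-count filter called 1 in the interaction, where leaving out libraries gave 0 to 1.

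The remaining changes of sign were in values that no test called, and the cause was not tested. In TCKO against CKO, Trbc2 was 0.23 in limma voom and Lck -0.09 with the length offset; leaving out libraries gave -0.45 to 0.71 for Trbc2 and -0.02 to 0.21 for Lck. In CKO against WT, limma voom gave -0.02 for Cd3g and -0.03 for Trbc2. Cd2 there was -0.00 with upper-quartile normalization, -0.03 with the replicate block and -0.02 without the choroid-rich libraries. Thinning all libraries to the smallest gave -0.08 for Trbc2 and 0.01 for Lck, and Lck was 0.07 without the choroid-rich libraries and 0.12 with the length offset. Leaving out libraries gave -0.67 to 0.86 for Cd3g, -0.96 to 0.45 for Cd2, -0.38 to 0.14 for Cxcr6, -0.52 to 0.66 for Trbc2 and -0.16 to 0.09 for Lck. In the interaction, Cd3d was -0.52 in DESeq2 and -1.67 in limma voom, Cd3e -0.11 in limma voom and Cd8a 0.10 with the length offset. Leaving out libraries gave -1.45 to 2.18 for Cd8a and -1.78 to 1.92 for Cd8b1. With 0 to 4 reads of Cd3d, Cd3e, Cd3g, Cd8a, Cd8b1 and Cd2 in each CKO library, differences from CKO were near what this depth can show.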
